A study of Gallus gallus with 24 samples.

Results

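The response described here is that of chicken DF1 cells with lowered IRF9 after 6 h of poly(I:C), set against the same knockdown cells at 0 h. It rests on 6 of the 24 count tables of the series, 3 labelled IRF9 at 6 hours and 3 labelled IRF9 at 0 hours, chosen by their labels alone. DF1 is a spontaneously immortalised line of chicken embryonic fibroblasts, and poly(I:C) is a synthetic double-stranded RNA used as a stand-in for viral RNA. Both groups carry the genotype label IRF9 knockdown, and poly(I:C) is the treatment label of every library, the 0 h libraries included. The rest of the series is the same cells at 30 min and 1 h and mock cells, labelled wildtype, at the same 4 times, each group with 3 libraries. The sources used here do not give how the knockdown was made, whether it is 1 clone, or how poly(I:C) reached the cells, and the growth label gives 25 °C. Untreated cells at 6 h are not among the samples analysed here, so the action of poly(I:C) and 6 h more in culture cannot be told apart. Whether the 3 libraries of a group came from 3 cultures is not labelled; p-values therefore measure the spread between libraries, which may be technical.

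Double-stranded RNA is read by endosomal TLR3 and by the cytosolic helicases MDA5 (IFIH1) and LGP2 (DHX58); chickens lack RIG-I. These sensors drive NF-kB, which switches on chemokine and cytokine genes and its own inhibitors, and interferon regulatory factors, which switch on interferon genes. Secreted interferon then acts through JAK kinases and STAT proteins, and in mammals STATs bind IRF9 to form the complex ISGF3, the activator of interferon-stimulated genes. The reference annotation lists IRF10 as another name of the chicken gene counted here as IRF9.

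Each library held between 14497012 and 19808842 gene-assigned reads, and between 12174030 and 19974065 across the series. At these depths 3 reads, taken as the floor of detection, correspond to 0.151 to 0.212 CPM, a floor that covers counting error only, since PCR reads carried no molecular identifiers. Levels are in CPM, the reads of a gene scaled to a fixed library total after TMM normalization. Of 25466 genes listed, 11618 had a mean of at least 1 CPM at 0 h or 6 h and were tested. A gene is said to have risen or fallen, or to be called, when its Benjamini-Hochberg adjusted p over all 11618 genes was below 0.05 in edgeR's quasi-likelihood test, fitted to all 24 libraries with 8 group means.

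Of the genes that mark fibroblasts, the collagen gene COL1A1 (1054 CPM at 0 h), the vimentin gene VIM (1729 CPM) and the fibronectin gene FN1 (2227 CPM) were all abundant. Other markers of the list were not. PDGFRA was at 0.919 CPM at 0 h, and S100A4 and TCF21, both below the level filter, had 10 and 0 reads at 0 h. None of the 18 fibroblast markers tested was called. All 6 h libraries lay above those of 0 h for 1 marker and below for 4. Of all tested genes 13.8% and 11.6% did so. The summed level of the whole marker list was 6913 to 7295 CPM at 0 h and 6258 to 7317 CPM at 6 h. Muscle markers were low, with a summed level of at most 0.590 CPM and no marker above the level filter, and no epithelial, endothelial or neural marker was called. The neural list summed to 331 to 342 CPM at 0 h, with TUBB3 at 320 CPM. The endothelial list summed to 178 to 211 CPM, with ERG at 189 CPM, and the epithelial list to 10.8 to 11.9 CPM. Among 5 leukocyte markers tested CD3E, a chain of the T cell receptor complex, was called higher (11.3 ± 1.62 to 22.8 ± 1.71 CPM, log2 fold change 1.01). All 5 had a positive log2 fold change (median 0.548), such as PTPRC (1.61 to 2.28 CPM), which was not called. Markers below the level filter went either way, with 48 and 30 reads for CD3D and 3 and 8 for SPI1. CD8A and CD79B had no read in the 6 libraries. The summed level of the leukocyte list was 23.4 to 26.0 CPM at 0 h and 35.8 to 39.6 CPM at 6 h, and the part of these markers in the results was not tested. The replicate 3 libraries stood apart from replicates 1 and 2 at both times. The first principal component of the 6 libraries, with 38.5% of the variance, separated 6 h from 0 h. The next, with 22.1%, placed replicate 3 at 13.2 (0 h) and 21.1 (6 h) and the other 4 libraries between -9.84 and -7.14.

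Knockdown was checked first. IRF9 was at 15.6, 16 and 21.4 CPM in the replicate 1, 2 and 3 libraries at 0 h and at 21, 20.8 and 23.2 CPM in those at 6 h, the order in which library values are given throughout. The mock libraries held 29.1, 27.4 and 26.4 CPM at 0 h and 33.5, 33.3 and 32.1 CPM at 6 h. All 3 knockdown libraries lay below all 3 mock libraries at each time. The knockdown mean was 64.0% of the mock mean at 0 h and 65.6% at 6 h (exact two-sided permutation p = 0.1 for each, the smallest that 3 against 3 libraries allow). In bulk RNA fewer cells with the transcript and less transcript per cell cannot be told apart. From 0 h to 6 h IRF9 in knockdown cells went from 17.7 ± 3.26 to 21.6 ± 1.34 CPM, groups that overlapped, with a log2 fold change of 0.29 ± 0.18 (SE) and an adjusted p of 0.615.

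After 6 h, chemokine genes, a helicase gene and enzymes of cholesterol synthesis were among the 194 genes that rose, 1.67% of those tested. Another 35 genes fell, which is 0.301% of those tested, led by the kinase gene MAP2K6. Both directions together make 229 genes or 1.97%, and at an unadjusted p below 0.05 there were 823 higher and 499 lower. If no gene changed, 581 would be expected at that p in both directions together. The median log2 fold change was 0.80 among the 194 and -0.61 among the 35, beside 0.0066 over all 11618 genes. More than a doubling was seen for 70 of the risen genes, and a drop to less than 50% for 3 of the fallen genes. All 229 called genes had 3 libraries at 6 h entirely above or below the 3 at 0 h, a separation that 13.8% (above) and 11.6% (below) of all tested genes shared. Protein-coding genes made up 184 of the 194 rises and all 35 falls, beside 10678 of all 11618 tested genes. Long non-coding RNAs made up 8 rises, beside 848 of all tested genes.

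**Figure D1:**
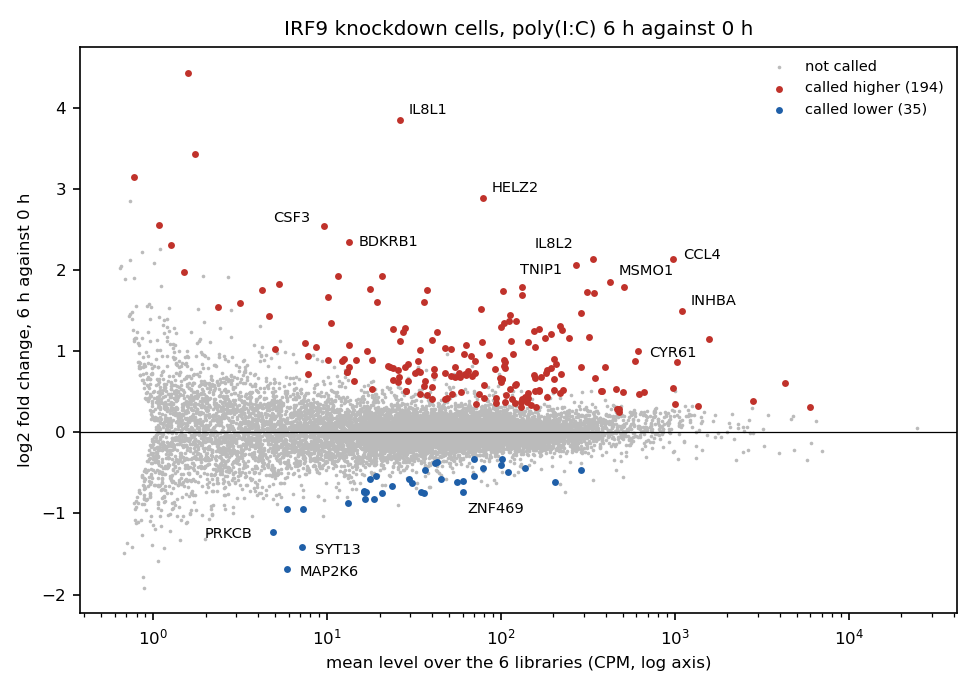
Each point is 1 of the 11618 genes tested in IRF9 knockdown cells, with its mean level over the 6 libraries (CPM, log axis) across and its log2 fold change from 0 h to 6 h upwards; grey points were not called. The 194 risen genes (red) reach from low to high levels and as far up as 4.44, while the 35 fallen genes (blue) end at -1.69.

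These counts depend on the libraries and on the fit, the falls most of all. Without replicate 1, 2 or 3 at 0 h, 127, 119 and 136 genes were called higher and 9, 8 and 19 lower. Without replicate 1, 2 or 3 at 6 h, 135, 131 and 155 genes were called higher and 18, 14 and 9 lower. Leaving out both replicate 3 libraries gave 106 higher and 3 lower, whereas a fit to these 6 libraries alone gave 556 and 313 and DESeq2 gave 249 and 92. In the 6 fits that left out 1 library, 106 of the 194 rises and 3 of the 35 falls kept their call in all 6. In none of the 6 did 19 and 9 keep it. No called gene changed direction there, but the libraries of 0 h and 6 h were already separate for every called gene. Nothing is therefore read from the lack of reversals.

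Of the 194 risen genes 87 belong to at least 1 of 44 gene lists, as do 14 of the 35 fallen genes. The lists were drawn up for this tissue and treatment with earlier results of these data known. Counts of called members are therefore partly built in. The share of all tested genes that belong to a list is not given here, so nothing is read from the 87 and 14. Where a list is described, its counts and median are given beside the shares above (1.67% higher, 0.301% lower, median 0.0066).

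**Figure D2:**
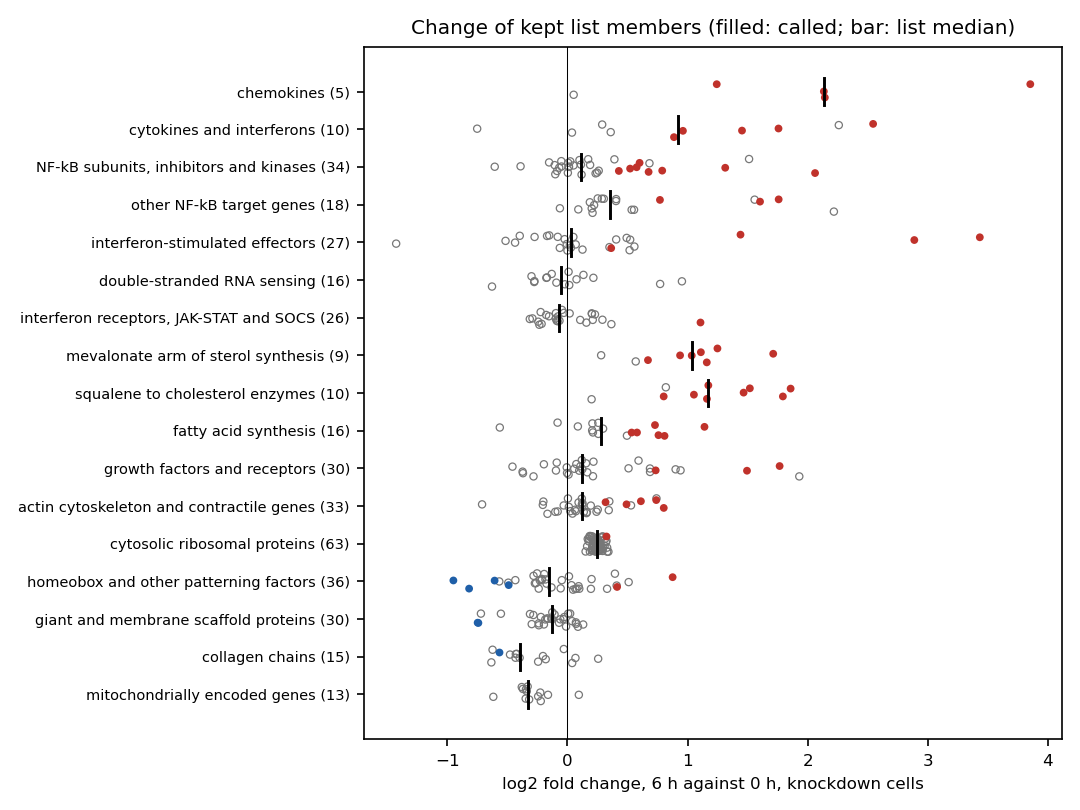
Each point is a tested member of a gene list (number of tested members in brackets), placed by its log2 fold change from 0 h to 6 h in knockdown cells; filled points were called, in red for rises and blue for falls, and the black bar is the list's median. Chemokines and both arms of sterol synthesis lie to the right with medians of 2.14, 1.04 and 1.17, ribosomal protein genes form a tight cluster around 0.245, and collagen chains and mitochondrially encoded genes centre at -0.40 and -0.33.

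Of the 44 lists, chemokines had the highest median. Of 5 chemokine genes tested 4 rose and none fell, with a median log2 fold change of 2.14. IL8L1 and IL8L2 are the chicken counterparts of the neutrophil attractant CXCL8 and lie 9351 bp apart on chromosome 4. IL8L1 went from 4.22, 3.75 and 2.17 CPM at 0 h to 58.8, 60.6 and 27.9 CPM at 6 h, a log2 fold change of 3.86 ± 0.41 (adjusted p = 1.58e-06). IL8L2, at 167, 144 and 61.1 CPM at 0 h, reached 668, 599 and 379.8 CPM (2.14 ± 0.36, adjusted p = 0.000654). In both genes replicate 3 was the lowest library at each time, and the groups did not overlap; without the replicate 3 libraries the changes were 3.90 and 2.02. CCL4, which attracts monocytes and T cells, rose from 365, 340.1 and 375 to 1746, 1487 and 1515 CPM (2.14 ± 0.17, adjusted p = 3.77e-08), with libraries of a time close to each other. CX3CL1, a membrane-bound chemokine, went from 25.5 ± 0.687 to 60.3 ± 8.52 CPM (1.24 ± 0.23, adjusted p = 0.00169); it was not called without both replicate 3 libraries (1.15, adjusted p = 0.0625), which left 3 chemokines called. The constitutive chemokine CXCL12 was not called (0.05), and CCL5, CCL20 and CCL19 were below the level filter, with 4, 65 and 0 reads in the 6 libraries.

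A further gene with CCL4 among its names in the reference, LOC395551, lies 6221 bp from CCL4 on chromosome 19 and was picked out after its values were seen. It had 7 reads in the 3 libraries at 0 h and 141 in those at 6 h, which is 0.302, 0.0695 and 0 CPM against 2.89, 3.61 and 2.59 CPM. The fitted change of 4.44 ± 0.69 (adjusted p = 0.000442) is the largest of all called genes and rests on those few reads. With 1 library left out it ranged from 3.87 to 6.27, and 2 of the 0 h libraries lay under the floor, so the size of the change is not fixed by these data. Whether reads of the CCL4 pair, or of the IL8L pair, were split between the 2 genes of a pair was not tested.

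Cytokine genes followed. Of 10 tested, 5 rose and none fell (median 0.92). CSF3, the granulocyte colony-stimulating factor, went from 3.42, 3.2 and 1.72 to 21.1, 17.8 and 9.9 CPM (2.55 ± 0.30, adjusted p = 7.74e-06), again with replicate 3 lowest. LIF, an interleukin-6 family cytokine, rose from 59.8 ± 3.57 to 164 ± 21.3 CPM (1.45 ± 0.15, adjusted p = 1.07e-06), and CSF1, the macrophage growth factor, from 41.5 ± 3.57 to 80.8 ± 9.79 CPM (0.96 ± 0.16, adjusted p = 0.000897). TNFSF15, a TNF family ligand, was at 1.56, 2.22 and 2.0 CPM at 0 h and 5.08, 6.89 and 7.48 CPM at 6 h (1.76 ± 0.33, adjusted p = 0.00208), and its call was lost without both replicate 3 libraries (adjusted p = 0.0623). IL16 was the other called member (0.89). CSF2, at 0.383 and 1.8 CPM, had a log2 fold change of 2.26 and an adjusted p of 0.0646. Type I, II and III interferon genes stayed at the floor: IFNA3, IFNG and IFNL3A had no read in the 6 libraries and IFNW1 had 1. IL6 had no read either, and IL1B had 4 reads at 0 h and 22 at 6 h.

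NF-kB subunits, inhibitors and kinases showed 8 rises and no fall among 34 tested genes (median 0.11). The largest called changes were those of inhibitors. NFKBIA encodes IkB-alpha, the cytoplasmic anchor of NF-kB, and rose from 119, 124 and 133 to 335, 305 and 296 CPM (1.31 ± 0.10, adjusted p = 1.28e-08). TNIP1, a partner of the A20 ubiquitin-editing enzyme, rose from 112, 103 and 99.4 to 489, 457 and 364 CPM (2.06 ± 0.17, adjusted p = 4.8e-08). In both genes the libraries of 6 h lay far above those of 0 h. Subunit genes rose less: NFKB1 by 0.52 ± 0.08 (185 to 266 CPM, adjusted p = 0.000205), NFKB2 by 0.60 and REL by 0.43. The adaptor gene TRAF3 rose by 0.68 ± 0.12, with 3 libraries between 192 and 193 CPM at 6 h. NFKBIZ (0.79) and NFKBIE (0.58) were called too, with a call kept in 2 and 1 of the 6 fits that left out a library, and NFKB2 and REL kept theirs in 4. Without both replicate 3 libraries 4 members of the list were called. TNFAIP3, which encodes A20, did not pass (1.46 to 4.15 CPM, log2 fold change 1.51, adjusted p = 0.063).

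Among 18 other NF-kB target genes 3 rose and none fell (median 0.35). NUAK2, an AMPK-related kinase, went from 14.2, 18.1 and 18.9 to 57.1, 60.4 and 55.7 CPM (1.76 ± 0.21, adjusted p = 6.1e-06). TNFAIP2 went from 17.8 ± 0.0684 to 54.2 ± 7.91 CPM (1.6 ± 0.23, adjusted p = 0.000112). The syndecan SDC4 rose by 0.77, a call kept in 0 of the 6 leave-outs. CD40 (0.55, adjusted p = 0.0597) missed the threshold. In TNFAIP2 the 6 h libraries ranged from 45.2 to 59.9 CPM, above the whole 0 h group.

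In the interferon arm 4 of 27 interferon-stimulated effectors tested rose and none fell, with a median of 0.03. Of all tested genes 1.67% rose. HELZ2, a helicase that acts as a nuclear receptor co-activator and an antiviral effector in mammals, went from 20.1, 20.5 and 15.4 CPM to 147, 137 and 131 CPM. Its log2 fold change was 2.89 ± 0.22 (adjusted p = 1.28e-08), second only to IL8L1 among the 15 largest rises of well-expressed named genes. IFI6, an interferon-inducible mitochondrial protein gene, was at 0.302, 0.278 and 0.278 CPM at 0 h and 2.33, 3.08 and 4.09 CPM at 6 h, or 15 reads against 151 (3.43 ± 0.61, adjusted p = 0.00132), and was not called without both replicate 3 libraries (3.18, adjusted p = 0.0585). IFIT5, which binds viral RNA ends, rose from 2.49 ± 0.525 to 6.78 ± 0.663 CPM (1.44 ± 0.29, adjusted p = 0.005) and lost its call only without replicate 3 at 0 h (adjusted p = 0.0544) among the 6 leave-outs. CASP8, the initiator caspase, rose by 0.36 and kept its call in 1 of the 6. HELZ2 was the 1 effector called without both replicate 3 libraries. The classical effectors MX1 (6 reads at 0 h, 8 at 6 h) and RSAD2 (0 and 2 reads) had few reads at both times.

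Genes upstream of those effectors form short lists. None of 16 genes of double-stranded RNA sensing was called in either direction (median -0.06), where 1.97% of all tested genes were called. The lack of calls in so short a list is not read as a lack of change. Of these, 3 had all 6 h libraries above and 5 had all below those of 0 h, beside 13.8% and 11.6% of all tested genes. IRF7, the inducible interferon regulatory factor of chicken, had 8.3, 8.13 and 11.6 CPM at 0 h and 17.1, 16.9 and 14 CPM at 6 h (log2 fold change 0.77, adjusted p = 0.166). IRF1 had 3.42, 2.99 and 2.67 and 6.63, 6.3 and 4.72 CPM (0.95, adjusted p = 0.207). In IRF7 and IRF1 every 6 h library lay above every 0 h library. TLR3 was the reverse, with 7.24, 6.39 and 6.94 CPM at 0 h and 3.25, 4.13 and 5.87 CPM at 6 h (-0.63, adjusted p = 0.327), and the sensor gene IFIH1 had 11 and 12 CPM (adjusted p = 0.872). Beside 1.67% of all tested genes, 1 of 26 genes for interferon receptors, Janus kinases, STATs and SOCS proteins rose (median -0.07). That was SOCS3, the feedback inhibitor of JAK signalling, at 4.88, 4.24 and 5.0 CPM at 0 h and 10.2, 9.38 and 10.9 CPM at 6 h. Its change of 1.11 ± 0.29 had an adjusted p of 0.04999, just under the threshold, and passed neither with RLE scaling nor in any of the 6 leave-outs. No member of a list of 17 antigen presentation genes was called (median 0.00067).

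Receptors and ligands that act on blood vessels formed another group. Of 12 bradykinin, prostaglandin and vasoactive peptide genes 4 rose and none fell (median 0.74). The receptor genes for bradykinin, a peptide of inflammation and pain, lie 3127 bp apart on chromosome 5. BDKRB1, the inducible receptor, went from 4.17, 4.79 and 4.11 to 25.1, 24.1 and 17.3 CPM (2.35 ± 0.24, adjusted p = 8.53e-07). BDKRB2, in mammals the constitutive receptor, went from 8.09, 8.2 and 9.67 to 32.7, 27 and 39 CPM (1.93 ± 0.29, adjusted p = 0.000176). Neither gene had overlapping groups. ADM, the vasodilator adrenomedullin, rose by 1.13 ± 0.16 and EDN1, the vasoconstrictor endothelin, by 1.67 ± 0.39. EDN1 kept its call in 2 of the 6 leave-outs.

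Secreted growth factors, matrix genes and actin genes rose in smaller numbers. Of 30 growth factors and receptors 3 rose (median 0.12). PDGFB, a mitogen for mesenchymal cells, was at 7.99, 7.99 and 8.05 CPM at 0 h and 29.7, 31 and 21.2 CPM at 6 h (1.77 ± 0.19, adjusted p = 1.58e-06). INHBA, which encodes the activin A chain, rose from 535, 549 and 635 to 1589, 1556 and 1704 CPM (1.5 ± 0.14, adjusted p = 3.01e-07). VEGFA rose by 0.74, a call kept in 1 of the 6 leave-outs. For PDGFB and INHBA all 6 h libraries lay well above all 0 h libraries. Among 29 matrix proteins, proteases and inhibitors 4 rose (median 0.02): TIMP3, an inhibitor of metalloproteases, by 1.79 ± 0.36, THBS1, thrombospondin, by 1.15 ± 0.14, HAS2, a hyaluronan synthase, by 0.91 ± 0.15, and ADAMTS9, a secreted protease, by 0.91 ± 0.20 (kept in 3 of the 6 leave-outs). TIMP3 went from 228, 192 and 268 to 837, 704 and 843 CPM (adjusted p = 0.00466); the call was lost without replicate 2 at 0 h (adjusted p = 0.0505) and without both replicate 3 libraries (adjusted p = 0.0527). Of 33 actin and contractile genes 5 rose (median 0.13), among them the Z-disc adaptor PDLIM5 (0.80) and the tropomyosin TPM1 (0.49).

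DIO3, the deiodinase that inactivates thyroid hormone, rose from 4.47, 5.63 and 4.17 to 21.9, 21.3 and 11.2 CPM (1.93 ± 0.27, adjusted p = 7.09e-05). The thyroid hormone receptor THRB rose by 0.43 (kept in 1 of the 6 leave-outs). The list of 17 nuclear receptor and thyroid genes had 2 rises and 1 fall (median 0.0034). In DIO3 the replicate 3 library at 6 h lay below the other 6 h libraries and above every 0 h library. ANGPTL4, an inhibitor of lipoprotein lipase listed with hypoxia genes, rose from 145 ± 22.7 to 479.9 ± 69.2 CPM (1.73 ± 0.24, adjusted p = 5.92e-05), 1 of 3 rises among 27 hypoxia and glycolysis genes (median 0.0084).

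Genes of cholesterol synthesis rose nearly as a block. Of 9 enzymes of the mevalonate arm 7 rose and none fell (median 1.04), and of 10 enzymes from squalene to cholesterol 8 rose and none fell (median 1.17). HMGCS1, which makes the HMG-CoA of the first committed steps, went from 172, 168 and 139 to 569, 592 and 411 CPM (1.71 ± 0.17, adjusted p = 4.29e-07). The gene overlaps NIM1K, a kinase gene with few reads, so reads in the shared stretch may not belong to HMGCS1 alone. FDPS (1.25), FDFT1 (1.11), MVK (0.94), MVD (1.04) and ACAT2 (0.67) rose too, and PMVK (0.57, adjusted p = 0.158) missed the threshold. IDI2, an isopentenyl isomerase outside the list and picked after its values were seen, rose by 1.27.

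In the later arm MSMO1, a sterol methyl oxidase, went from 208, 192 and 148 to 713, 719 and 555 CPM (1.86 ± 0.18, adjusted p = 3.41e-07). LSS, lanosterol synthase, went from 58.6, 63.7 and 54.7 to 229.9, 213 and 171 CPM (1.79 ± 0.17, adjusted p = 2.1e-07). NSDHL (1.52), CYP51A1 (1.47), SQLE (1.17), DHCR7 (1.16) and SC5D (0.80) also rose, and HSD17B7 (0.82, adjusted p = 0.13) did not pass. Of the sterol enzymes called, 14 of 15 kept the call in all 6 leave-outs; SC5D kept it in 1. The replicate 3 library was the lowest of 3 for all 19 enzymes at 6 h and for 18 of 19 at 0 h, where 36.6% and 37.2% of all tested genes had replicate 3 lowest. Without both replicate 3 libraries the medians of the arms were 1.09 and 1.18, with 7 and 7 called, so the rise was as large without them.

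Genes of sterol sensing and transport were set beside the 1.67% of all tested genes that rose. Of 18 tested 2 rose and none fell (median -0.04): STARD4, a cytosolic sterol carrier, from 47.4 ± 5.58 to 158 ± 17.1 CPM (1.74 ± 0.14, adjusted p = 3.77e-08), and INSIG1, the endoplasmic reticulum anchor of SREBP, from 9.49 ± 2.07 to 28.9 ± 8.9 CPM (1.61 ± 0.24, adjusted p = 0.000182). Of 16 genes of fatty acid synthesis 6 rose and none fell (median 0.28). FADS2, a desaturase, rose by 1.14, ACLY, which supplies cytosolic acetyl-CoA, by 0.81, LPIN1 by 0.76 and ELOVL5 by 0.58. SCD (0.73) and ELOVL6 (0.53) kept their call in 1 of the 6 leave-outs each. AACS, which feeds ketone bodies into lipid synthesis and was picked after its values were seen, rose from 62.4 ± 9.0 to 203 ± 44.8 CPM (1.7, adjusted p = 9.74e-07).

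Little of the 6 h response was called at earlier times. At 30 min no gene was called (0%) by edgeR, DESeq2 or limma voom. By edgeR 183 had an unadjusted p below 0.05, fewer than the 581 expected if no gene changed. The lack of calls is therefore not read as a lack of change. At 1 h 3 genes were called, all higher, which is 0.0258% of those tested. These comparisons use the same 0 h libraries as the 6 h comparison, so their values are set side by side. The 194 genes risen at 6 h had a median log2 fold change of 0.0089 at 30 min and 0.04 at 1 h, and the 35 fallen genes 0.04 and -0.08. At 1 h 25 of the 194 (12.9%) had all 3 libraries above all 0 h libraries, beside 4.61% of all tested genes, and 4 of the 35 (11.4%) had all 3 below, beside 4.54%. The 194 and 35 were chosen against the same 0 h libraries, so nothing is read from these shares.

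The early genes were CCN2, CYR61 and KLF6. CCN2 and CYR61 encode matricellular proteins known as targets of YAP in the Hippo pathway, and KLF6 is a zinc finger factor of the immediate early kind. CCN2 had 252, 250.2 and 298 CPM at 0 h, 626, 635 and 653 CPM at 1 h and 418, 411 and 440.4 CPM at 6 h. Its log2 fold change against 0 h was 1.26 ± 0.16 at 1 h (adjusted p = 0.000512) and 0.67 ± 0.16 at 6 h (adjusted p = 0.021), where it kept the call in 1 of the 6 leave-outs. So the level at 6 h lay between those at 0 h and 1 h in every library. CYR61 had 380.2, 392 and 453 CPM at 0 h, 826, 846 and 897 CPM at 1 h and 808, 775 and 884 CPM at 6 h, with changes of 1.07 ± 0.19 (adjusted p = 0.027) and 1.01 ± 0.19 (adjusted p = 0.00183). KLF6 had 161, 149 and 155 CPM at 0 h, 225, 252 and 233 CPM at 1 h and 236, 231 and 269 CPM at 6 h, with changes of 0.61 ± 0.10 (adjusted p = 0.00787) and 0.66 ± 0.10 (adjusted p = 0.000105). Of the 1 h calls, that of CCN2 was kept whichever 0 h library was left out. No 1 h library was left out, so the dependence of these calls on the 1 h libraries is not known. The 1 h call of CYR61 was lost without replicate 1, 2 or 3 at 0 h (adjusted p = 0.401, 0.25 and 0.0872), and that of KLF6 without replicate 2 or 3 (adjusted p = 0.141 and 0.0839). In CYR61 and KLF6 the ranges at 1 h and 6 h overlapped. At 30 min the replicate 3 library of CCN2 held 421 CPM and that of CYR61 644 CPM, above the other libraries of that time. ANKRD1, another Hippo target, rose by 6 h (1.34 ± 0.25), making 3 rises among 15 Hippo targets tested (median -0.02). Of the 15, 5 had all 6 h libraries above and 7 had all below those of 0 h, beside 13.8% and 11.6% of all tested genes.

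**Figure D3:**
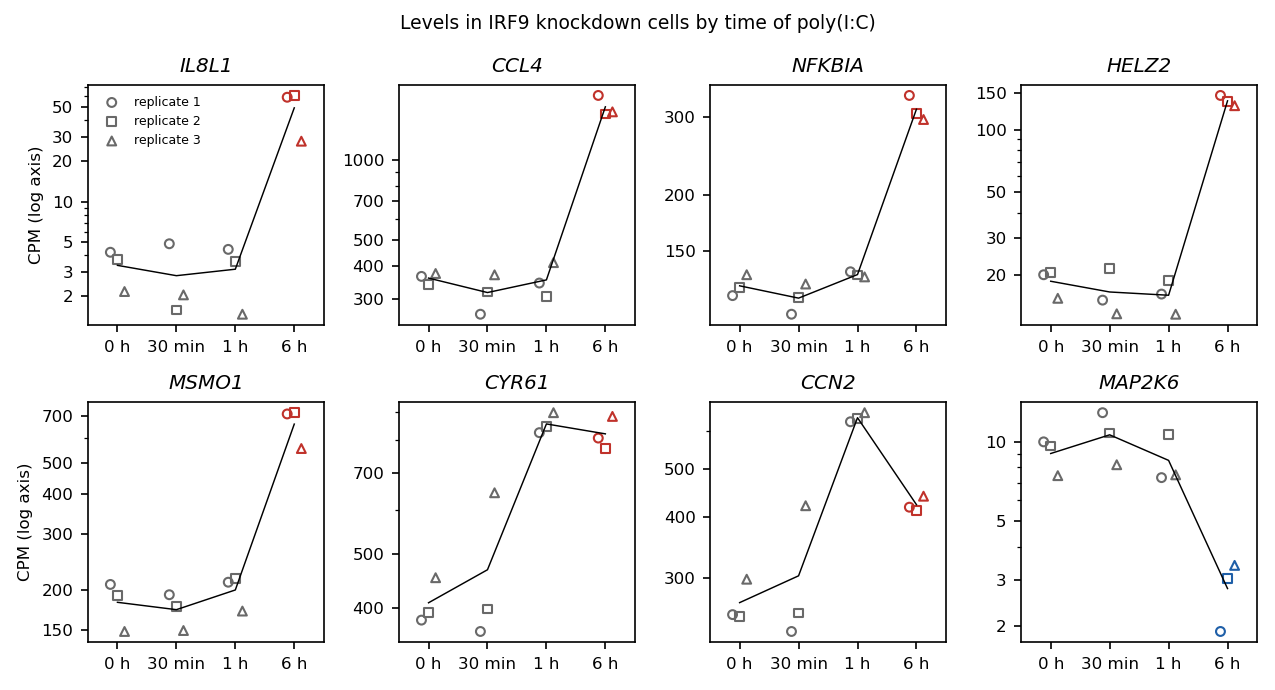
Time courses of 8 genes in the knockdown cells, as CPM on a log axis against the 4 sampling times; each symbol is 1 library, the symbol shape gives the replicate number, coloured symbols mark 6 h and the line joins the means of 3 libraries. IL8L1, CCL4, NFKBIA, HELZ2 and MSMO1 leave the 0 h level only at 6 h, CYR61 is high from 1 h on, CCN2 is highest at 1 h, and MAP2K6 is low at 6 h.

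Other immediate early and feedback genes were called at 6 h and not earlier, a difference between times that was not tested. Of 35 immediate early transcription factors and related genes 4 were called higher at 6 h (median 0.24): KLF6, BTG2 (0.68 ± 0.12), BTG1 (0.49 ± 0.10) and MYC (0.68 ± 0.16). BTG1 and BTG2 are antiproliferative and MYC promotes growth; MYC kept its call in 1 and BTG1 in 4 of the 6 leave-outs. Of 18 feedback genes of the ERK kinase pathway 3 rose (median 0.29), with PHLDA1 from 404, 404 and 434 to 771, 739 and 775 CPM (0.88 ± 0.07, adjusted p = 4.8e-08). SPRY4 rose by 0.72 and DUSP16 by 0.62, the latter in 0 of the 6 leave-outs.

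Cell cycle, stress and death genes were set beside the 1.97% of all tested genes that were called. Of 36 S phase and mitosis genes none was called (median -0.02), and of 22 G1 genes 1 rose, the inhibitor CDKN1B (0.48 ± 0.11). The heat shock list of 27 had 1 rise (HSF2, 0.34), the unfolded protein response list of 23 had 1 (EIF2AK3, 0.71), and the clock list of 20 had none. Few calls need not mean no change. In the heat shock list 5 genes had all 6 h libraries above and 8 had all below those of 0 h, and in the G1 list 8 and 2. Of all tested genes 13.8% and 11.6% did. HSF2 and EIF2AK3 kept their call in 1 of the 6 leave-outs and CDKN1B in 3, and HSF2 was not called with RLE scaling. Of 27 apoptosis genes TNFRSF10B, a death receptor, rose from 75 ± 3.39 to 133 ± 6.43 CPM (0.82 ± 0.14, adjusted p = 0.000877), as did CASP8. The ectodysplasin receptor EDA2R fell from 157 ± 6.57 to 116 ± 4.55 CPM (-0.44 ± 0.09, adjusted p = 0.00953), in 3 of the 6 leave-outs.

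MAP2K6, SYT13 and PRKCB were the largest falls. MAP2K6, the kinase that activates p38, went from 10.0, 9.65 and 7.44 CPM at 0 h to 1.9, 3.02 and 3.4 CPM at 6 h (-1.69 ± 0.36, adjusted p = 0.00914). It was the only called gene among 24 of the MAP kinase cascade (median -0.05), and its substrate gene MAPK14, at 121 and 109.7 CPM, was not called (-0.15, adjusted p = 0.432). SYT13, an atypical synaptotagmin, went from 8.6, 12.2 and 10.5 to 3.74, 4.79 and 3.17 CPM (-1.42 ± 0.25, adjusted p = 0.00139). PRKCB, a classical protein kinase C, went from 7.14, 8.2 and 5.33 to 2.26, 3.34 and 3.17 CPM (-1.23 ± 0.27, adjusted p = 0.0108). SYT13 and PRKCB were the 2 called among 32 genes of protein kinase C and calcium signalling (median -0.08). All 3 were low genes, below 13 CPM in every knockdown library, and in all 3 the groups were separate. ABCA5, a lipid transporter gene 3812 bp from MAP2K6 on chromosome 18, fell from 21 ± 0.434 to 12.6 ± 1.4 CPM (-0.73 ± 0.18, adjusted p = 0.0269).

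Patterning factors and large scaffold proteins were also among the falls. Of 36 homeobox and other patterning factors 4 fell and 2 rose (median -0.15). IRX1 fell from 7.09, 8.82 and 7.28 to 5.22, 3.28 and 3.51 CPM (-0.95 ± 0.25, adjusted p = 0.0484), and ZNF462, a chromatin-linked zinc finger factor, from 24.3, 25.3 and 21.2 to 14.9, 11.9 and 13.3 CPM (-0.82 ± 0.19, adjusted p = 0.0158). ZFHX3 (-0.49) and MAB21L2 (-0.61) were the other falls of the list. The homeobox gene HOXC10, outside the list and picked after its values were seen, also fell (-0.57). Its call was kept in 0 of the 6 leave-outs. The T-box repressor TBX3 went the other way, from 49.6 ± 2.1 to 91.1 ± 3.44 CPM (0.88 ± 0.09, adjusted p = 8.53e-07), as did MSX2 (0.41, kept in 2 of the 6 leave-outs). Of 30 giant and membrane scaffold genes 2 fell and none rose (median -0.13): SYNE1, nesprin-1 of the nuclear envelope, with a log2 fold change of -0.74 ± 0.17 (45.3 to 27.1 CPM), and EPB41, the membrane skeleton protein of the red cell, with -0.75 ± 0.18 (25.9 to 15.4 CPM). Of the 30, 7 had a positive log2 fold change.

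Axon guidance genes split, with the falls RGMA (-0.95 ± 0.24, 8.09, 10.2 and 10.3 CPM to 3.67, 6.43 and 4.72 CPM) and NAV2 (-0.74 ± 0.19) against the rises SEMA6A (0.73 ± 0.11) and SEMA3C (0.42 ± 0.11) among 34 tested (median -0.12). SEMA3C was not called with RLE scaling or in any leave-out. ZNF469, a zinc finger gene linked in people to brittle cornea, fell from 72.4, 69.2 and 84 to 46.6, 44.1 and 45 CPM (-0.74 ± 0.14, adjusted p = 0.00333). NDNF, a secreted factor picked after its values were seen, had the smallest adjusted p of the falls, from 67.9, 66.7 and 66.1 to 41.8, 43.9 and 46 CPM (-0.61 ± 0.09, adjusted p = 9.42e-05). LZTS1 (-0.82), KANK4 (-0.73) and the receptor phosphatase PTPRJ (-0.72) fell as well.

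**Figure D4:**
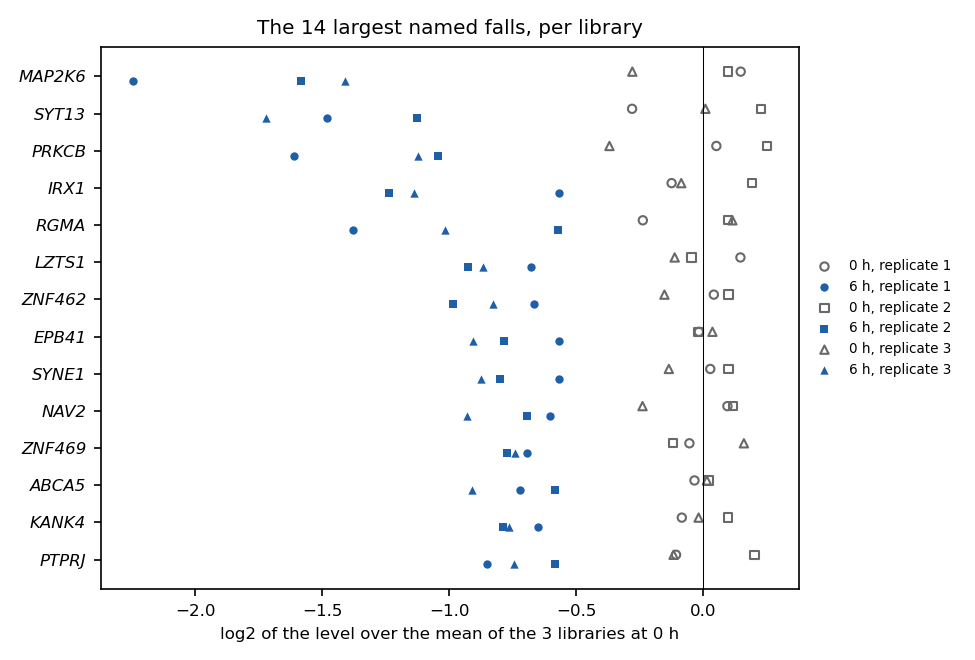
For the 14 largest falls among genes with a symbol, the level in each library is shown as log2 of its ratio to the mean of the 3 libraries at 0 h; open symbols are 0 h, filled blue symbols 6 h, and the symbol shape gives the replicate number. All 6 h libraries lie to the left of all 0 h libraries for each gene, with MAP2K6 replicate 1 farthest out.

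How firmly a fall was called differed between genes. SYT13, ZNF469 and NDNF kept the call in all 6 leave-outs, and MAP2K6 in 5, losing it without replicate 1 at 6 h (-1.49, adjusted p = 0.0788). PRKCB kept it in 3, RGMA, ZNF462 and SYNE1 in 2, IRX1, EPB41, NAV2, ABCA5 and PTPRJ in 1, and LZTS1, KANK4, ZFHX3 and MAB21L2 in none. Without both replicate 3 libraries MAP2K6, PRKCB and NDNF were the 3 falls left.

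Collagen genes leaned downward. Of 15 collagen chains tested 1 fell, COL18A1, from 53.7 ± 4.08 to 36.2 ± 2.63 CPM (-0.57 ± 0.13, adjusted p = 0.0157), a call kept in 2 of the 6 leave-outs. The list had a median of -0.40, and 8 of the 15 had all 6 h libraries below all 0 h libraries, beside 11.6% of all tested genes. COL1A2 had 257, 267 and 267 CPM at 0 h and 196, 152 and 162 CPM at 6 h (-0.63, adjusted p = 0.34), and COL5A1 had 113 and 73.2 CPM (-0.62, adjusted p = 0.276). SERPINH1, the collagen chaperone, had 403 and 269 CPM (-0.59, adjusted p = 0.0937). The summed collagen level was 3120 to 3410 CPM at 0 h and 2615 to 3066 CPM at 6 h.

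Genes of the translation machinery and of mitochondrial DNA shifted little one by one and in opposite directions as lists. All 63 cytosolic ribosomal protein genes had all 3 libraries at 6 h above all 3 at 0 h, beside 13.8% of all tested genes. Their log2 fold changes were 0.15 to 0.34 (median 0.245). The 63 genes were read in the same 6 libraries and are not 63 separate observations. The summed level of the ribosomal protein genes was 40233 to 41884 CPM at 0 h and 47039 to 50636 CPM at 6 h. Between those times it ran from 35528 CPM (replicate 1 at 30 min) to 44799 CPM (replicate 1 at 1 h). RPL19 was the 1 called (0.32 ± 0.08, adjusted p = 0.0471), in none of the leave-outs and not with RLE scaling, under which all 63 changes were still positive (median 0.23). In mock cells the same list had a median of 0.09. The 13 mitochondrially encoded genes had a median of -0.33 with 12 negative changes and no call. Their summed level was 19564 to 22315 CPM at 0 h and 14555 to 19528 CPM at 6 h, with replicate 3 lowest at each time for 12 of 13 genes. The 44 nuclear genes of the respiratory chain had no call and a median of 0.14.

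In mock cells, where IRF9 was at the higher level, 301 of the same 11618 genes were called (2.59%), with 275 higher (2.37%) and 26 lower (0.224%). The mock replicate 2 libraries stood apart from all others, at 23.8 to 35.3 on the first principal component of the 24 libraries where the rest reached at most 6.23, and without them 208 genes were called in mock cells. Same-numbered mock libraries deviated together, and with a replicate block 738 genes were called in mock cells. For the difference between genotypes no gene was called (0%), by edgeR, DESeq2 or limma voom, with 162 genes at an unadjusted p below 0.05 in edgeR. With the replicate block there was again no call, with 422 at that unadjusted p. If no gene differed, 581 of the 11618 would be expected there, more than either count. The lack of calls is therefore not read as a lack of difference. All 194 genes risen in knockdown cells had a positive log2 fold change in mock cells too, and 34 of the 35 fallen genes a negative one, beside 67.4% of all tested genes with the same sign in both. Of the 194 rises 167 were called in mock cells, and of the 35 falls 10. Their median log2 fold change was 0.80 in knockdown and 0.83 in mock cells for the rises, and -0.61 and -0.45 for the falls. The change was the larger one in knockdown cells for 94 of the 194 and for 28 of the 35, genes that were chosen on their change in knockdown cells.

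**Figure D5:**
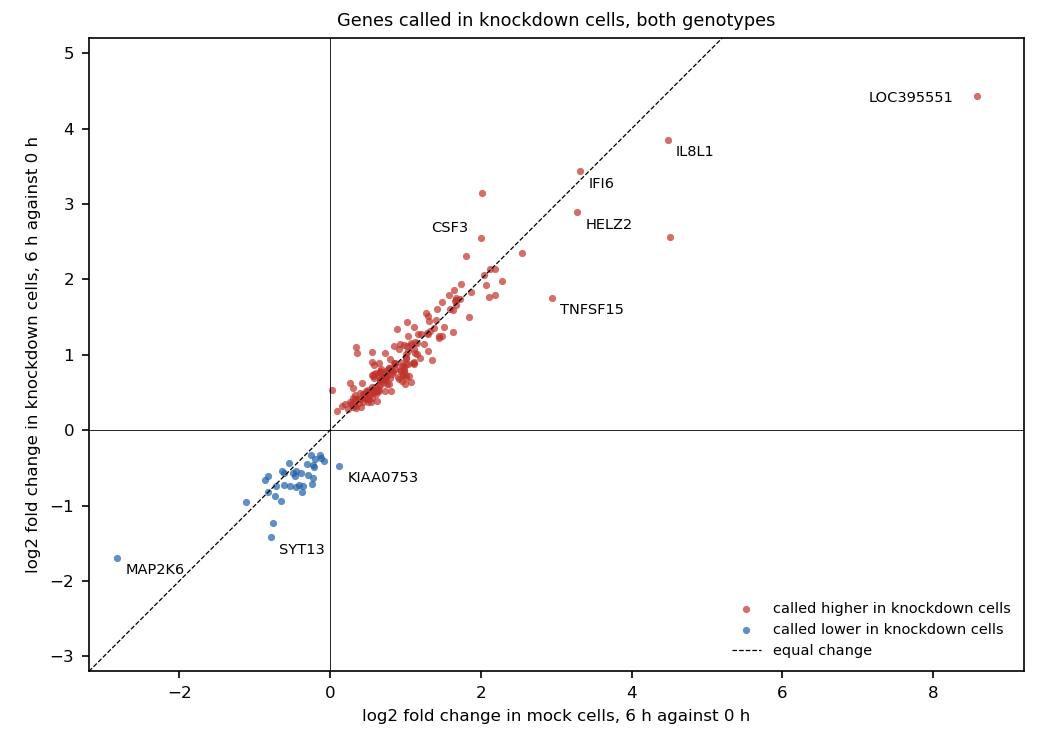
The 229 genes called in IRF9 knockdown cells, each placed by its log2 fold change from 0 h to 6 h in mock cells (across) and in knockdown cells (upwards); red points were called higher and blue points lower in knockdown cells, and the dashed line marks equal change. Most points lie along the line, KIAA0753 alone among the falls lies right of 0, and the mock value of LOC395551 rests on 0 reads at 0 h and is no measured fold.

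For single genes the values in both genotypes were as follows. HELZ2 rose by 2.89 in knockdown and 3.28 in mock cells, CCL4 by 2.14 and 2.13, NFKBIA by 1.31 and 1.32 and HMGCS1 by 1.71 and 1.66. TNFSF15 rose by 1.76 and 2.94 (unadjusted p of the difference 0.0177, adjusted p = 0.99988), and MAP2K6 changed by -1.69 and -2.82 (unadjusted p 0.0403, adjusted p = 0.99988). Neither difference passed the correction over all genes. Among genes with a gene symbol the smallest unadjusted p of edgeR's interaction test was that of HOMER1, a synaptic scaffold gene, with a log2 fold change of -0.28 in knockdown and 0.65 in mock cells (edgeR adjusted p = 0.99988). KIAA0753, a centriolar protein gene, came next and was called in knockdown cells, from 43.3, 44.1 and 39.7 to 28.5, 30.6 and 32.6 CPM (-0.47 ± 0.11, adjusted p = 0.0288), kept in 2 of the 6 leave-outs, beside a change of 0.12 in mock cells (p of the difference 0.00125, adjusted p = 0.99988). PATJ, HMBOX1 and IFT22 followed with unadjusted p of 0.00283, 0.00312 and 0.00363 and the same adjusted p of 0.99988.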

How the data were processed

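RNA of 24 DF1 libraries, 3 in each of 8 groups of genotype and time, was sequenced after poly-A selection with directional library preparation, per the labels' protocols. The authors deposited 1 table of raw read counts per gene for each library; the submitters' processing notes name HTSeq 2.0.5, STAR 2.7.11b, the build GRCg7b, edgeR 3.40.2, Trim Galore 0.6.10 and FastQC 0.12.1. Whether reads were counted by strand is not stated there or in the labels. From these counts 5 summary lines were left out, and genes with a mean of at least 1 CPM in knockdown cells at 0 h or 6 h were kept. In the 6 libraries 14.6% to 16.3% of reads fell in no gene and 1.24% to 1.28% were ambiguous. All 24 libraries were fitted with edgeR 4.0.16 in R 4.3.3 (TMM, quasi-likelihood, 8 group means, 16 residual degrees of freedom), with Benjamini-Hochberg adjustment over 11618 genes and a threshold of 0.05. SE is the fold change divided by the root of its F statistic, and ± after a mean CPM is the SD over 3 libraries. Alternatives used DESeq2 1.42.0, limma 3.58.1 (voom), RLE scaling, other filters, other sets of libraries and a replicate block. In mock cells same-numbered libraries at 0 h and 6 h deviated together (r of 0.33, 0.52 and 0.31) and count as pairs by the data alone; in knockdown cells not all did (0.02, 0.09 and 0.22). The test was also run on simulated counts drawn independently for each library. They held no replicate 3 shift, no pairs and no deviating mock libraries, so they do not show how the test behaves on these data. Gene names and positions follow a RefSeq table, matched for 25229 of 25466 genes; gene lengths there are spans, so levels were not compared between genes. No sequences were used.

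Named were IRF9, the 15 largest rises and falls among called genes with a gene symbol at 5 CPM or more, 4 members per list by smallest p, every gene called at 1 h and the 5 symbols with the smallest interaction p; other genes were chosen after their values were seen, and a few genes that the rule names are not reported here. The members and the 44 lists were chosen with earlier results of these data known.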

Additional observations from a re-analysis of the deposited data

How the results depend on the processing

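The 194 rises and 35 falls moved little with RLE scaling (184 and 41), a filterByExpr filter (186 and 38), a minimum of 5 CPM (194 and 38) or limma voom (204 and 34). Without a filter on low counts 209 genes were called higher and 67 lower, and DESeq2 called 249 and 92, with 5 at 1 h. Fits to fewer libraries called more: 556 and 313 with the 6 compared libraries, 348 and 183 with the 12 knockdown libraries (5 at 1 h), and 298 and 117 without the mock replicate 2 libraries (5 at 1 h). Leaving out 1 of the 6 libraries gave 119 to 155 higher, 8 to 19 lower and 1 to 3 at 1 h. The 1 h libraries were not among those left out. Leaving out both replicate 3 libraries, an alternative added after seeing the data, gave 106 higher, 3 lower and 1 at 1 h. The cause of these moves was not tested. Same-numbered knockdown libraries at 0 h and 6 h deviated together only weakly (r of 0.02, 0.09 and 0.22) and were not taken as pairs, unlike the mock libraries; with a replicate block 458 genes were called higher, 240 lower and 8 at 1 h. No gene was called at 30 min or for the difference between genotypes in the fits that hold them; the fit to 6 libraries holds neither and that to 12 knockdown libraries has no genotype difference. Calls were compared for 105 of the called genes named. All 105 kept their call under the block, DESeq2 and the fits to 6 libraries, to 12 libraries and without the mock replicate 2 libraries. With RLE scaling 100 kept it, with voom 101 and without both replicate 3 libraries 56. Leaving out 1 of the 6 libraries kept between 66 and 80. None changed direction, but 0 h and 6 h libraries of every called gene were separate from the start, so nothing is read from that.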

Other observations

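In knockdown cells the median fold change was lower for genes of longer span. In 5 equal groups of tested genes by genomic span, the median log2 fold change at 6 h was 0.08 in the shortest, then 0.03, -0.0015, -0.02 and -0.04 in the longest, while in mock cells it went from -0.04 to 0.02. Falls made up 0.129% of the shortest and 0.559% of the longest group. The 35 fallen genes had a median span of 28442 bp, beside 15205 bp over all tested genes, and 22.9% of them were longer than 100 kb, beside 7.89%. The shift was no larger than differences between libraries. As log2 levels relative to the mean of the knockdown libraries at 0 h, the shortest group had medians of -0.01, -0.02 and 0.05 at 0 h and 0.13, 0.04 and 0.07 at 6 h, which overlap, and knockdown replicate 1 at 30 min had -0.24. These are descriptions with no test.

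Some called genes were close neighbours that moved in the same direction. MVK and MMAB, the latter an enzyme of cobalamin metabolism, lie 162 bp apart on chromosome 15 and both rose, NSDHL and the centrin gene CETN1 lie 324 bp apart on chromosome 4 and both rose, and COL18A1 and AHR1B lie 14777 bp apart on chromosome 7 and both fell. All of these pairs were picked after their values were seen.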
